A study of Mus musculus with 7 samples.

Results

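The 10 genes described here carry water-soluble vitamins into cells or bind them for uptake. They are the riboflavin transporters Slc52a2 and Slc52a3, the thiamine transporters Slc19a2 and Slc19a3, the folate transporters Slc19a1 and Slc46a1, the multivitamin transporter Slc5a6, the ascorbate transporter Slc23a1, and Cubn and Amn, which form the ileal receptor for vitamin B12. They were found by gene symbol among 38293 genes of the deposited table, and 9 of them were among the 14869 genes with enough counts to be tested. The group was chosen from the data, because Slc52a3 was lower on the low cystine diet, and the diet difference of Slc52a3 is therefore described without a test. The diet differences of the other members did not enter that choice and were tested, although earlier results of these data were known when the group was made.

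RNA was sequenced from the ileum of 7 male C57BL/6NRJ mice, which were 8 weeks old when the study began, 4 on a normal cystine diet (normal cys) and 3 on a low cystine diet (low cys). All mice were housed singly, first ate the control version of AIN93G HF, a purified diet rich in fat, for 1 week, and then received their diet for 2 weeks. Total cystine, the disulfide dimer of cysteine, was 0.38% of the normal cys diet and 0.08% of the low cys diet, in which alanine took the place of the added cystine. The samples were scrapings of the most distal stretch of the small intestine, which hold the epithelium with its lamina propria, and each library came from 1 mouse. Library totals were 19712355 to 22412703 counts on normal cys and 14888760 to 21942518 on low cys. Levels are given as CPM, counts normalized to the TMM-scaled library total, and values of single libraries always follow the order X17SI4, X32SI4, SI9, X1SI4 for normal cys and X23SI4, X26SI4, X10SI4 for low cys. Log2 fold changes are low cys minus normal cys with their standard error (SE), adjusted p-values come from edgeR over all tested genes, and exact permutation tests on mean log2 CPM are two-sided and cannot give a p below 0.0286 with these group sizes. In bulk tissue, fewer cells of a type and less RNA per cell cannot be told apart.

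Water-soluble vitamins cross the gut wall through dedicated carriers in the enterocyte membranes, since charged or polar molecules pass lipid bilayers poorly. Slc52a3 protein sits in the apical membrane and takes riboflavin up from the lumen, and Slc52a2 is a riboflavin carrier found in many tissues. Vitamin B12 follows another route: bound to gastric intrinsic factor, it is captured in the ileum by cubam, the complex of cubilin (Cubn) and amnionless (Amn), and is taken in by endocytosis. Inside the cell riboflavin becomes FMN and FAD, the cofactors of flavoenzymes.

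Per kilobase of exon, Cubn, Slc52a3 and Amn were the most abundant members and Slc19a3 was close to absent. Over the 7 libraries the mean level was 119.9 CPM per kilobase for Cubn (range 69.0 to 175.9), 106 for Slc52a3 (84.0 to 129) and 99.4 for Amn (66.9 to 127). The ranges of these 3 genes overlapped, so their order is not resolved. Slc52a2 followed at 43.0 CPM per kilobase (31.9 to 55.5), below every library of Amn, and Slc5a6 at 13.8 (6.77 to 21.4), below every library of Slc52a2. The next 4 were Slc23a1 at 5.18 (0.454 to 15.5), Slc46a1 at 3.59 (2.66 to 4.47), Slc19a2 at 2.63 (2.08 to 3.896) and Slc19a1 at 1.60 CPM per kilobase (1.08 to 2.32). The range of Slc23a1 covered those of the 3 genes after it, and neighbours among Slc46a1, Slc19a2 and Slc19a1 overlapped as well. With the length of the longest transcript in place of all exons, Slc52a2 was at 21.9, Slc46a1 at 5.58 and Slc19a1 at 2.59 CPM per kilobase, and Slc52a2 (16.3 to 28.3) was no longer apart from Slc5a6 (7.86 to 24.9).

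**Figure D1:**
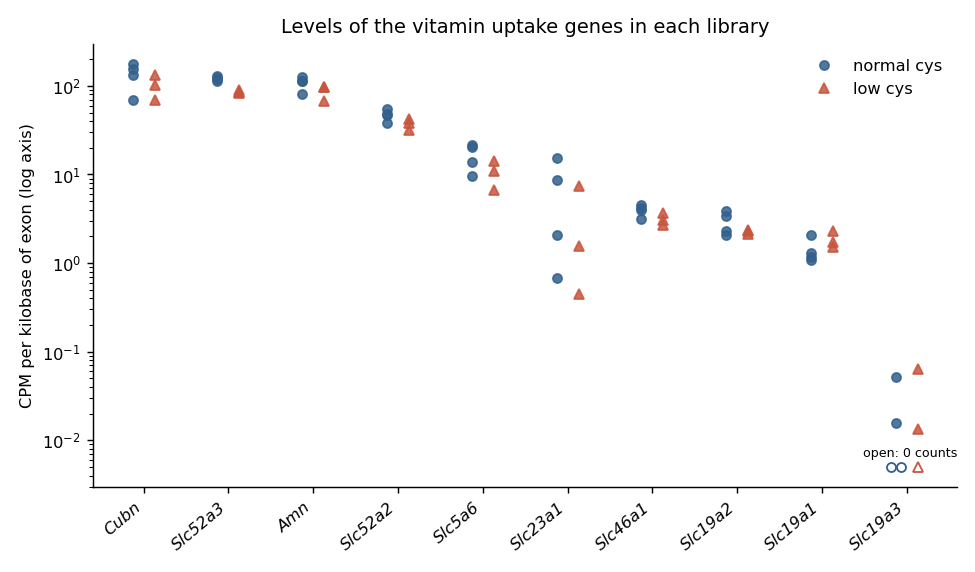
Level of each gene (CPM per kilobase of exon, log axis) in the normal cys libraries (circles) and the low cys libraries (triangles), with open symbols for libraries without a count. Cubn, Slc52a3 and Amn lay highest and overlapped, Slc23a1 spread widest among the genes tested, and Slc19a3 lay lowest.

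Slc52a3, on the plus strand of chromosome 2 from 151996511 to 152009258 (GRCm38) with 6 exons, held 358, 313, 328 and 343 CPM on normal cys and 239, 233 and 247 CPM on low cys. Every low cys library lay below every normal cys library, as for 3.51% of all tested genes. The mean was 335 ± 19.2 CPM (SD, n = 4) on normal cys and 239 ± 7.33 CPM (SD, n = 3) on low cys, a log2 fold change of -0.49 (SE 0.119). The counts behind these values were 3721 to 7171 per library, whose counting error was at most 1.64%, while the libraries of 1 diet varied by 5.74% on normal cys and 3.06% on low cys. No 50-base stretch of its transcripts occurred in a transcript of another gene. Since these values chose the group, they are a description and carry no test.

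Slc52a2, the other riboflavin transporter, lies on chromosome 15 from 76538943 to 76542130. It held 102, 126, 132 and 149.9 CPM on normal cys and 86.2, 114 and 103 CPM on low cys. The diets overlapped, with X17SI4 low among the normal cys libraries and X23SI4 lowest of all 7. The means were 127 ± 19.8 CPM (SD, n = 4) and 101 ± 14.1 CPM (SD, n = 3), the log2 fold change was -0.34 (SE 0.162, 95% interval -0.70 to 0.03), the adjusted p was 0.794 and the exact permutation p 0.143. The interval holds both no change and a decrease larger than that of Slc52a3. Per kilobase, Slc52a3 was above Slc52a2 in 7 of 7 libraries, by 1.99 to 3.43 times, and the ratio was 2.63 ± 0.544 (SD, n = 4) on normal cys and 2.35 ± 0.358 (SD, n = 3) on low cys. The size of this ratio depends on the length used, and with the longest transcripts it was 5.34 ± 1.10 (SD, n = 4) and 4.77 ± 0.727 (SD, n = 3), from 4.03 to 6.97.

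The thiamine transporters were low in this tissue. Slc19a2, a high-affinity thiamine carrier on chromosome 1 from 164249046 to 164265385, held 8.83, 7.99, 12.9 and 14.95 CPM on normal cys and 9.14, 8.81 and 8.12 CPM on low cys. SI9 and X1SI4 lay above the other 5 libraries, which were between 7.99 and 9.14 CPM whatever the diet. The log2 fold change was -0.36 (SE 0.240, 95% interval -0.90 to 0.18), with an adjusted p of 0.794 and an exact permutation p of 0.371. Slc19a3, the thiamine carrier of the apical membrane, lies on the same chromosome from 83012523 to 83038448. It had 0, 0, 3 and 1 counts on normal cys and 1, 0 and 3 counts on low cys, at or under 3 counts in every library. A count of 0 allows up to 3 counts, which is 0.122 to 0.193 CPM depending on the library, so neither a level nor a diet difference of Slc19a3 was detectable at this depth.

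The folate transporters had estimates of opposite sign. Slc46a1, the proton-coupled carrier that takes up folate in the acid upper intestine, lies on chromosome 11 from 78465697 to 78472059 and held 12.96, 9.58, 13.8 and 12.1 CPM on normal cys and 9.39, 8.19 and 11.3 CPM on low cys. The diets overlapped only through X32SI4 at 9.58 and X10SI4 at 11.3 CPM. Its log2 fold change was -0.33 (SE 0.190, 95% interval -0.76 to 0.10), with an adjusted p of 0.794 and an exact permutation p of 0.114. Slc19a1, the reduced folate carrier on chromosome 10 from 77032241 to 77061002, held 6.01, 9.63, 4.99 and 5.40 CPM on normal cys and 10.8, 7.0 and 8.06 CPM on low cys. X23SI4 was its highest library, although X23SI4 was the lowest low cys library for 5 other members, and the diets overlapped through X32SI4. It was the only tested member with a higher estimate on low cys, at a log2 fold change of 0.41 (SE 0.272, 95% interval -0.21 to 1.02), an adjusted p of 0.794 and an exact permutation p of 0.229. Per kilobase the ratio of Slc46a1 to Slc19a1 was 3.07 ± 1.12 (SD, n = 4) on normal cys and 1.73 ± 0.406 (SD, n = 3) on low cys, which did not pass an exact permutation test (p = 0.114).

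Slc5a6, the sodium-dependent carrier of biotin, pantothenate and lipoate, lies on the minus strand of chromosome 5 from 31036036 to 31048924 with 19 exons. It held 38.8, 54.5, 85.4 and 80.9 CPM on normal cys and 27.0, 56.1 and 43.8 CPM on low cys. X17SI4 and X23SI4 were the lowest library of their diet and SI9 the highest of all, a range of 3.16 times. The means were 64.9 ± 22.1 CPM (SD, n = 4) and 42.3 ± 14.6 CPM (SD, n = 3), with a log2 fold change of -0.62 (SE 0.320, 95% interval -1.35 to 0.11), an adjusted p of 0.794 and an exact permutation p of 0.229. Of its 50-base stretches, 20.8% also occur in other transcripts, 13.6% in the pseudogene Gm6157 and 7.20% in Atraid on the opposite strand, whose exons overlap those of Slc5a6 by 396 bases. The kit marks strand, but the strand setting of the counting is not given in the sources used here, so reads of that overlap may have been counted for either gene or for neither. Atraid itself held 26.7 to 36.5 CPM on normal cys and 29.1 to 34.1 CPM on low cys, without the library pattern of Slc5a6.

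Slc23a1, the sodium-dependent ascorbate carrier of absorptive epithelia on chromosome 18 from 35614604 to 35627244, varied most among the tested members. It held 2.19, 28.2, 50.05 and 6.78 CPM on normal cys and 1.47, 5.0 and 23.8 CPM on low cys, from 36 to 952 counts. The libraries of 1 diet differed among themselves far more than the diets did, and the whole range was 34.1 times. The log2 fold change was -1.13 (SE 1.12, 95% interval -3.69 to 1.43), with an adjusted p of 0.821 and an exact permutation p of 0.486, and it ran from -2.79 to -0.32 when single libraries were left out. A list of 6 markers of the proximal small intestine, 5 of which were tested (Gata4, Slc40a1, Fabp1, Lct and Cyp2b10), was led by Lct (means of 443 and 287 CPM on normal and low cys) and Fabp1 (266 and 178 CPM). Of the tested markers only Slc40a1 had a higher estimate on low cys (log2 fold change 0.85). The sum was highest in SI9 and X10SI4, at 1429.9 and 1068 CPM, and lowest in X23SI4 at 263 CPM. These were also the highest library of each diet and the lowest of all for Slc23a1. X32SI4, second highest for Slc23a1, was at 593 CPM for that list, below X1SI4 at 693 CPM. The part of this list in the spread of Slc23a1 was not tested.

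**Figure D2:**
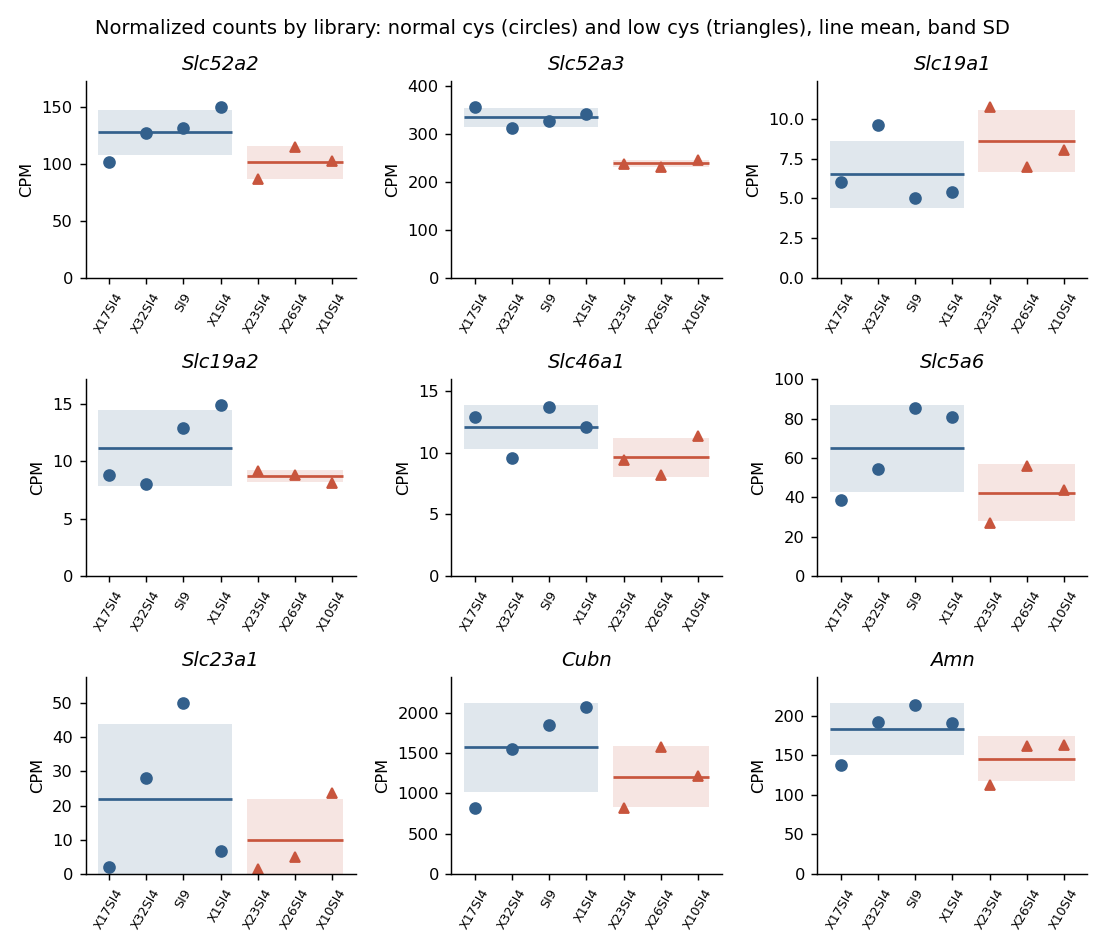
Level in CPM (vertical axes, from 0) of the 9 tested genes in each library, with circles for normal cys, triangles for low cys, lines for the mean and bands for 1 SD. The diets separate for Slc52a3, by whose difference the group was chosen, as for 3.51% of all tested genes on the lower side. They overlap in the other 8 panels, where X17SI4 and X23SI4 are often the lowest of their diet.

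Cubn and Amn, the cubam subunits, were the members whose site of action is the ileum itself. Cubn lies on the minus strand of chromosome 2 from 13276338 to 13491924 with 67 exons, and Amn on the plus strand of chromosome 12 from 111271111 to 111276426 with 12 exons. Cubilin binds the complex of intrinsic factor and vitamin B12, and amnionless anchors cubilin in the membrane and carries it to the cell surface. Cubn held 816, 1548, 1851 and 2077 CPM on normal cys and 823, 1582 and 1219.9 CPM on low cys. X17SI4 and X23SI4 were close to each other and well under the other 5 libraries, and every low cys library lay inside the range of normal cys. Its means were 1573 ± 549.6 CPM (SD, n = 4) and 1208 ± 379.7 CPM (SD, n = 3), with a log2 fold change of -0.38 (SE 0.331, 95% interval -1.13 to 0.37), an adjusted p of 0.804 and an exact permutation p of 0.457. The antisense gene Gm13270, which shares 1.85% of the 50-base stretches of Cubn, had at most 1 count in a library. Amn held 137, 192, 214 and 191 CPM on normal cys and 113, 161 and 163 CPM on low cys, again with X17SI4 and X23SI4 lowest in their diet. The log2 fold change of Amn was -0.33 (SE 0.192, 95% interval -0.77 to 0.10), with an adjusted p of 0.794 and an exact permutation p of 0.257. The ratio of Amn to Cubn per kilobase was 0.877 ± 0.224 (SD, n = 4) on normal cys and 0.871 ± 0.135 (SD, n = 3) on low cys, with an exact permutation p of 1. Within both diets the library poorest in Cubn had the largest ratio, 1.18 in X17SI4 and 0.960 in X23SI4.

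The start regions of Cubn, Amn and Slc5a6 are shown because the levels of these 3 genes moved together from library to library. Each is 250 bases before and 50 after the start site, 5′ to 3′ on the gene's strand, from RefSeq (GRCm38.p6), in which 7 of the 10 genes had an entry. Slc52a2 had no entry, although it moved with these genes too and was nearer to Amn than Cubn and Slc5a6 were. Capitals mark matches on either strand to any of 6 motifs, the GC box GGGCGG, the CDX2 core TTTATNG, the antioxidant response core TGACNNNGC, the ATF4 element TGATGNAA, the E-box CACGTG and the TATA box TATAAA.
Cubn, chr2:13491827-13492126, minus strand: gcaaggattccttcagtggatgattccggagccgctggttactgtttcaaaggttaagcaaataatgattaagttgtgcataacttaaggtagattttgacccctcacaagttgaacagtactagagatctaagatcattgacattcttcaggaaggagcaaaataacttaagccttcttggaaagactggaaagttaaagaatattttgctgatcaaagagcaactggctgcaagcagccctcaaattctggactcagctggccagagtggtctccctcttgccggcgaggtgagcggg
Amn, chr12:111270846-111271145, plus strand: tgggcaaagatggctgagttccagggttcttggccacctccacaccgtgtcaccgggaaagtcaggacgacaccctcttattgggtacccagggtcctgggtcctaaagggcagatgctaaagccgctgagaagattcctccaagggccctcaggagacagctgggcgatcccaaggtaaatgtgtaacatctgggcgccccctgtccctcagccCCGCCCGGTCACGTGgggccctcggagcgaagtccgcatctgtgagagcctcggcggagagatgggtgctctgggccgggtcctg
Slc5a6, chr5:31048513-31048812, minus strand: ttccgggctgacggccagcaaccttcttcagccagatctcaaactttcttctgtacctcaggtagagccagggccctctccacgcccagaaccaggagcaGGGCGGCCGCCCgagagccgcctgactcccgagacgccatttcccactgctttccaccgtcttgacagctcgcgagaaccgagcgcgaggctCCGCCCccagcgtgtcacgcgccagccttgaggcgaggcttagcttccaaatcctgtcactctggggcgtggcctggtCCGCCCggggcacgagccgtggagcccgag
The Cubn region held none of the 6 motifs and had a GC content of 44.3%. The Amn region, at 62.3% GC, held a GC box at -35, an antioxidant response core at -33 and an E-box at -26, which overlap one another in the capitals shown (positions count from the start site). The Slc5a6 region shown, at 66% GC, held 4 GC boxes and no other motif of the 6, and the region of another Slc5a6 start, chr5:31048030-31048329 at 70.3% GC, held 6 GC boxes and none of the others. Of all 32851 such regions, 35.7% hold a GC box, 10.9% a CDX2 core, 12.4% an antioxidant response core, 3.97% an ATF4 element, 7.15% an E-box and 13.6% a TATA box. A match is a description of letters and not a site of binding, and the 3 regions had no motif of the 6 in common.

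Apart from Slc52a3, 7 of the 8 tested members had a lower estimate on low cys, where 7262 of all 14869 tested genes did and the median log2 fold change of all tested genes was 0.01. None of these 8 had an adjusted p under 0.05 in edgeR, as 0% of all tested genes did, against 817 genes at an unadjusted p under 0.05, 16 genes with an adjusted p under 0.05 in DESeq2 and 0 in limma-voom. Lower on low cys at an unadjusted p under 0.05 were 2.83% of tested genes and higher were 2.66%, and none of the 8 members was in either share. The diets did not overlap for 3.51% of tested genes on the lower side and 3.32% on the higher side, and they overlapped for each of those 8 members. The 7 lower estimates are not independent measurements, since the members share the 7 libraries and several of them moved together. Scaling to library totals alone moved the median gene to 0.15, and 7 of the 8 were still lower. Slc52a3, whose diet difference chose the group, differed from the median gene by -0.49 on both scales, which is a description.

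**Figure D3:**
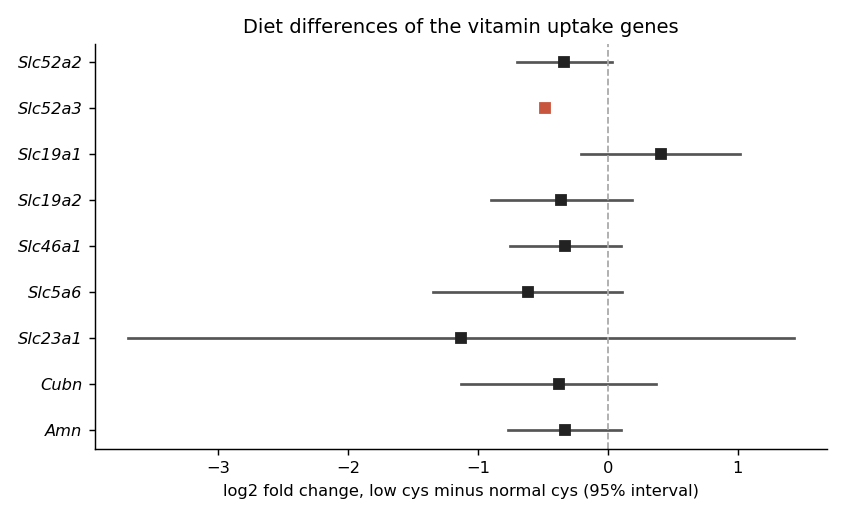
Log2 fold change of the 9 tested genes, low cys minus normal cys, with the 95% interval as a bar. Slc52a3 (red) is drawn without an interval because its difference chose the group. The intervals of the other 8 genes include 0, and that of Slc23a1 runs from -3.69 to 1.43.

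Across libraries the members fell into sets with like profiles, measured as the root-mean-square difference (RMS) of log2 CPM after each gene was centred on its mean over the 7 libraries. Slc52a2 and Amn were each other's nearest member (RMS 0.129), as were Slc5a6 and Cubn (0.190), and Slc52a3 and Slc46a1 (0.177). The profile of Slc52a3 includes the diet difference that chose the group, so its nearness to other members is only a description. Slc19a2 was nearest to Slc52a2 (0.240), Slc19a1 was far from all members (nearest Slc52a3, 0.570), and Slc23a1 was farther still (nearest Slc5a6, 1.47). A small RMS is partly a matter of small spread, which over the libraries was 0.27 log2 units (SD) for Slc52a3 and for Slc46a1, against 0.54 for Cubn and 0.59 for Slc5a6. X17SI4 was the lowest normal cys library for 5 of the 9 tested members, and X23SI4 the lowest low cys library for 5 of 9. For Cubn, Slc5a6, Amn, Slc52a2 and Slc23a1 these were the same 5 genes. The diet estimates of Cubn, Slc5a6 and Amn shifted with single libraries. Without X17SI4 the log2 fold change was -0.59 for Cubn, -0.80 for Slc5a6 and -0.45 for Amn, and without X23SI4 it was -0.16, -0.37 and -0.17. Leaving out X26SI4, the low cys library richest in Cubn and Slc5a6, moved them as far as leaving out X17SI4 did, to -0.60 and -0.85. Without X17SI4 and X23SI4 together, a setting added once the values were known, it was -0.37, -0.55 and -0.28. Slc23a1 moved most without X10SI4 (-2.79) and without SI9 (-0.32). Slc52a3 was at -0.45 without X17SI4, -0.47 without X23SI4 and -0.44 without both. Its difference chose the group, so these values are a description and no measure of how stable it is.

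**Figure D4:**
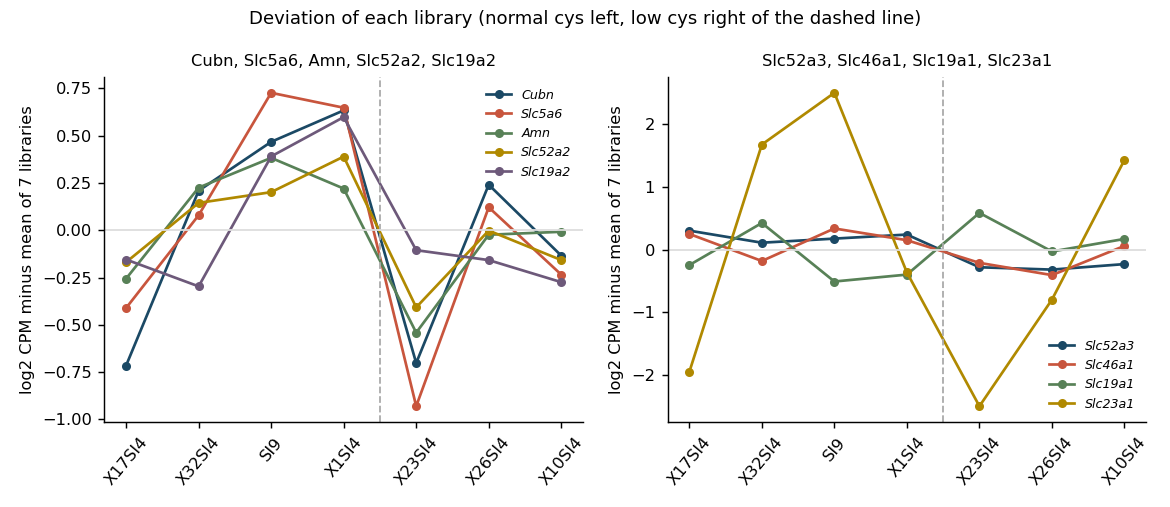
Log2 CPM of each tested gene minus its mean over the 7 libraries, by library, with normal cys left and low cys right of the dashed line (lines only join the points of a gene). On the left, Cubn, Slc5a6, Amn and Slc52a2 dip in X17SI4 and X23SI4. On the right, Slc52a3 stays flat within each diet while Slc23a1 swings widely, on a wider axis.

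The 5 tested genes nearest to Slc52a3 over the 7 libraries were Gm14536 (RMS 0.0883), Aim1l (0.0969), Clcn2 (0.0988), Gm15027 (0.0997) and Lpcat4 (0.100). Their likeness to Slc52a3 includes its diet difference, so their own diet differences are a description. Clcn2, a chloride channel, held 199.9 to 224 CPM on normal cys and 149 to 168 CPM on low cys. Lpcat4, a lysophospholipid acyltransferase, held 65.8 to 81.3 and 49.5 to 53.7 CPM, and Aim1l held 107 to 114 and 82.5 to 89.6 CPM. Gm14536 and Gm15027 are short pseudogenes, and all of their 50-base stretches (100%) occur in Usp9x and in each other, so their counts are uncertain.

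Villus enterocytes, the cells that absorb vitamins, had lower marker estimates on low cys in the same libraries. All 10 of 10 villus markers had a lower estimate (median log2 fold change -0.39), 2 of them with an unadjusted edgeR p under 0.05 (Apoa1 and Krt20) and none with an adjusted p under 0.05. Of all tested genes, 2.83% were lower at that unadjusted p. Krt20, an intermediate filament of mature enterocytes, held 2525 to 3204 CPM on normal cys and 1765 to 2338 CPM on low cys. Vil1, the microvillus protein villin, held 3567 to 3792 and 2195 to 3419 CPM. For both genes the diets did not overlap, as for 3.51% of all tested genes on the lower side. The summed markers were 36683, 36028, 48455 and 42562 CPM on normal cys and 22044, 32218 and 34468 CPM on low cys, with X23SI4 lowest and no marker at 0 counts. All 10 markers were lower as well without X17SI4 and X23SI4 (median -0.27) and with scaling to library totals (median -0.25). As a share of the summed villus markers, Slc52a3 was 0.975%, 0.869%, 0.676% and 0.805% on normal cys and 1.08%, 0.722% and 0.717% on low cys. On that scale the diets overlapped, with means of 0.831% and 0.840%. Anpep (means of 11470 and 9502 CPM on normal and low cys) and Apoa1 (9406 and 5438 CPM) were the largest parts of the sum. Apoa4 varied widely (4230 ± 2363 CPM, SD, n = 4, on normal cys), so the share carries the spread of the markers as well. The part of villus cell content in the difference of Slc52a3, which chose the group, was not tested. Cubn was 3.81% of the sum on normal cys and 4.06% on low cys, Amn 0.450% and 0.495%, Slc52a2 0.313% and 0.348%, and Slc5a6 0.156% and 0.141%.

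**Figure D5:**
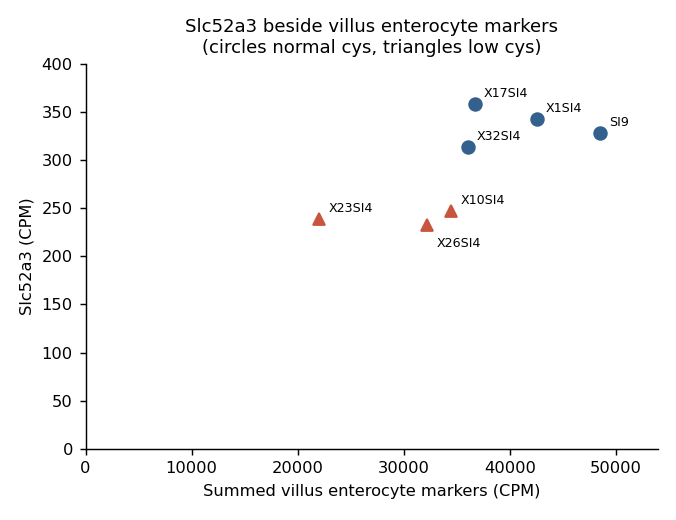
Slc52a3 (CPM) against the summed villus enterocyte markers (CPM) in each library, with circles for normal cys and triangles for low cys, both axes from 0. The 3 low cys libraries are lower than the 4 normal cys libraries on both axes, X23SI4 having the lowest marker sum but not the lowest Slc52a3.

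Markers of crypt, stromal, muscle and endothelial cells had estimates of the opposite sign, also without X17SI4 and X23SI4 and under each scaling. Proliferating crypt cells had 8 of 8 higher estimates on low cys (sums of 138 to 378 CPM on normal cys and 239 to 422 CPM on low cys, overlapping). Stroma had 7 of 7 higher among the tested markers, with sums of 10.9 to 21.1 CPM on normal cys and 25.1 to 32.5 CPM on low cys. Of these markers, 3 had an unadjusted edgeR p under 0.05, where 2.66% of all tested genes were higher at that p. Some were near the floor, such as Col1a1 with means of 0.67 and 1.35 CPM. Smooth muscle had 6 of 6 higher, with sums of 2.34 to 12.1 and 5.63 to 38.2 CPM. Endothelium had 4 of 4 higher, at 5.78 to 7.89 and 8.31 to 11.8 CPM, also on few counts (at most 11 in a library for Cdh5). B and plasma cell markers summed to 198 to 340 CPM on normal cys and 364 to 418 CPM on low cys, with 4 of 6 genes higher (2 of 6 without X17SI4 and X23SI4). Macrophage and dendritic cell markers had 6 of 7 higher, T cell markers 6 of 6 lower (3 of 6 without X17SI4 and X23SI4) and blood markers 1 of 3 higher, with overlapping sums. Of the 5 colon markers, 2 had enough counts to be tested. None of these lists had an adjusted p under 0.05 in any gene, and the part of cell makeup in the values of Slc52a3 and the other members was not tested. Markers of the distal ileum were present in every library, with Fabp6, Slc10a2, Fgf15 and Nr1h4 summing to 4575 to 8226 CPM on normal cys and 3457 to 6145 CPM on low cys, 2 higher and 2 lower. X1SI4 was highest for that sum and for Cubn, and X17SI4 and X23SI4 were the lowest of their diet for both.

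The genes that handle these vitamins inside or beside the cell had estimates of both signs. Of 103 such genes in 8 lists, 93 were tested, 35 with a higher and 58 with a lower estimate (median log2 fold change -0.06). At an unadjusted edgeR p under 0.05 there were 2 higher and 3 lower genes, and none had an adjusted p under 0.05. Of all tested genes, 2.66% were higher and 2.83% lower at that unadjusted p. The higher genes were Ggh and Pank1, and the lower were Ogdh, Pcx and Npc1l1. Their diets did not overlap, as for 3.32% of tested genes on the higher side and 3.51% on the lower. Because their edgeR p named them, exact permutation p-values from the same libraries add no separate support. In the lists for riboflavin, thiamine, biotin and fat-soluble vitamins the majority turned from lower to higher with scaling to library totals, which moved the median of all tested genes from 0.01 to 0.15.

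Riboflavin handling and flavoenzymes had 5 of 21 genes higher and 16 lower (median -0.08), against 13 higher and 8 lower with library totals, and none had an unadjusted p under 0.05. Rfk, the kinase that turns riboflavin into FMN, held 942 to 1493 CPM on normal cys and 948 to 1049.7 CPM on low cys, a log2 fold change of -0.34 (SE 0.181, adjusted p 0.794). Acadl, a flavoenzyme of fatty acid oxidation, was at -0.30 (SE 0.208, adjusted p 0.794). Flad1, which makes FAD from FMN, was at -0.08 (SE 0.130), and both had overlapping diets. Each of the 21 estimates was smaller in size than that of Slc52a3. Slc52a3 was chosen for its difference, so this comparison carries no weight, and it was not tested.

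Thiamine handling had 3 of 8 tested genes higher and 5 lower (median -0.08). Ogdh, the thiamine-dependent subunit of the oxoglutarate dehydrogenase complex, held 837 to 979 CPM on normal cys and 613 to 780.2 CPM on low cys without overlap. Its log2 fold change was -0.34 (SE 0.149, adjusted p 0.794, exact permutation p 0.0286). Ogdh too was named for its edgeR p, so that permutation p adds no separate support. Folate handling had 6 of 10 higher and 4 lower (median 0.47). Ggh, which trims the glutamate tail of folates, rested on low levels of 1.45 to 2.31 CPM on normal cys and 2.75 to 3.18 CPM on low cys, a log2 fold change of 0.66 (SE 0.270, adjusted p 0.794, exact permutation p 0.0571).

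Biotin, pantothenate and coenzyme A handling had 7 of 15 higher and 8 lower (median -0.04). Pcx, the biotin enzyme pyruvate carboxylase, held 37.6, 32.6, 37.3 and 38.2 CPM on normal cys and 20.4, 29.4 and 24.4 CPM on low cys. These did not overlap, with a log2 fold change of -0.56 (SE 0.148, adjusted p 0.794, exact permutation p 0.0286). Pcx was named for its edgeR p in these libraries, so that permutation p adds no separate support. Pank1, the kinase of the first step from pantothenate to coenzyme A, held 7.15 to 12.2 CPM on normal cys and 13.2 to 17.3 CPM on low cys, a log2 fold change of 0.58 (SE 0.203, adjusted p 0.794, exact permutation p 0.0571).

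Cobalamin handling had 7 of 11 higher and 4 lower (median 0.10), the sign of which turned without X17SI4 and X23SI4 (5 higher, 6 lower, median -0.10). Tcn2, the plasma carrier of vitamin B12, held 466 to 685 CPM on normal cys and 416 to 499 CPM on low cys, a log2 fold change of -0.28 (SE 0.166, adjusted p 0.794), and Mmachc, which processes cobalamin in the cytosol, was at 0.66 (SE 0.407, adjusted p 0.794) on 1.68 to 5.47 CPM. Ascorbate handling had 4 of 6 higher and 2 lower (median 0.08, and -0.04 without X17SI4 and X23SI4). Slc2a2, the hexose carrier that also moves dehydroascorbate, ranged from 16.4 to 129 CPM on normal cys and 9.75 to 48.3 CPM on low cys, with SI9 far above the rest, as it was for Slc23a1. Its log2 fold change was -0.94 (SE 0.765, adjusted p 0.804), and Gsto1, which can reduce dehydroascorbate, was at -0.26 (SE 0.163, adjusted p 0.794).

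Niacin and vitamin B6 handling had 1 of 10 higher and 9 lower (median -0.24), against 4 higher and 6 lower with library totals. Alpi, the alkaline phosphatase of the brush border that frees pyridoxal from its phosphate and is also one of the villus markers, held 723 to 1254 CPM on normal cys and 389 to 824 CPM on low cys, a log2 fold change of -0.61 (SE 0.299, adjusted p 0.794). Fat-soluble vitamin handling had 2 of 12 higher and 10 lower (median -0.10). Npc1l1, a sterol carrier of the brush border that also takes up vitamins E and K, held 1232, 990.4, 1630.1 and 1175 CPM on normal cys and 633, 795 and 901 CPM on low cys. The diets did not overlap, with a log2 fold change of -0.70 (SE 0.209, adjusted p 0.794, exact permutation p 0.0571).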

How the data were processed

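The authors deposited 1 table of raw counts, whole numbers of reads per gene, with the length of each gene's exons, made per the submitters' notes with FastQC 0.11.8, Trim Galore 0.6.5, STAR 2.73a and featureCounts on GRCm38. The libraries were stranded, poly(A)-selected and read in pairs. The strand setting and the handling of reads with several matches are not given in the sources used here. All 7 libraries were assigned by their titles, and no pair of libraries was a duplicate.

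Genes were kept with filterByExpr (minimum count 10, minimum total count 15), scaled by TMM and tested in edgeR 4.0.16 (R 4.3.3) with the robust quasi-likelihood test, diet as the only term, and Benjamini-Hochberg adjustment over all 14869 tested genes. Log2 CPM used a prior count of 2. Other settings were DESeq2 1.42.0, limma-voom (limma 3.58.1), median-of-ratios size factors, library totals, no filter, at least 10 counts in every library, a non-robust fit, leaving out each library, and, added later, leaving out X17SI4 and X23SI4. The steps were tested on simulated data. Sequence sharing is the percentage of 50-base stretches of a gene's GENCODE M21 transcripts found in another gene's transcripts.

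The members and the gene lists were chosen with earlier results of these data known. Named were the 10 members, every listed vitamin gene with an unadjusted p under 0.05 or otherwise the 2 of its list with the smallest p, the 5 tested genes nearest to Slc52a3, and the nearest other member of each member. A gene that the rule names is not reported here. Flad1, Vil1 and the other marker genes named were picked after their values were seen. P-values, SEs and 95% intervals of log2 fold changes take in the spread between these mice. The SE was the size of the log2 fold change divided by the square root of the edgeR F statistic. The counting error given for Slc52a3 and the limit for libraries without a count of Slc19a3 cover counting error only. Batches are not given in the sources used here.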

Additional observations from a re-analysis of the deposited data

Results flagged for a closer look

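The summed markers of macrophages and dendritic cells had 1 normal cys library far from the other 3. X1SI4 stood at 25.2 CPM, against 93.0 in X17SI4, 76.6 in X32SI4 and 75.4 in SI9, while the low cys libraries held 93.4, 90.6 and 98.4 CPM. On the log2 scale the gap of X1SI4 to its nearest neighbour took up 0.840 of the group's range, above Dixon's 95% critical value for 4 samples. Of 32 values examined 1 passed, and chance alone passes about 1 in 20 groups. No level of a vitamin uptake gene passed. In the same library Cubn (2077 CPM), Slc52a2 (149.9 CPM) and Slc19a2 (14.95 CPM) were at their highest.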

How the results depend on the processing

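The 120 log2 fold changes of the 8 tested members other than Slc52a3 kept their direction under other settings, also with each library left out. Their adjusted p was never under 0.05, but unadjusted edgeR p-values crossed 0.05 in some settings. Without X17SI4 they were 0.019 for Slc5a6, 0.020 for Slc52a2, 0.030 for Amn and 0.048 for Cubn. Slc19a1 was at 0.020 without X32SI4, and Slc52a2 at 0.049 without a filter. Slc5a6 was at 0.043 without X26SI4 and at 0.0497 without X17SI4 and X23SI4. The log2 fold change of Slc52a3, whose direction the choice of the group fixed, ran from -0.51 to -0.34. Counts over all genes moved more. Genes with an adjusted p under 0.05 numbered 0 in edgeR, 16 in DESeq2 and 0 to 1 with single libraries left out (1 without X32SI4). At an unadjusted p under 0.05, 396 genes were higher and 421 lower, against 911 higher and 126 lower with library totals alone, where the median gene shifted to 0.15 on the log2 scale. Leaving out single libraries gave 175 (without X23SI4) to 931 (without X17SI4) higher and 83 (without X23SI4) to 832 (without X17SI4) lower genes, and leaving out both gave 280 lower. The levels per kilobase of Slc52a2, Slc19a1 and Slc46a1, and the ratio of Slc52a3 to Slc52a2, changed with the transcript length used. With a prior count of 0.5, 4 of the 5 genes nearest to Slc52a3 remained among the nearest 5. Groups of 4 and 3 limit the precision of every member, and the few counts of Slc19a3 allow no comparison. No paired analysis was made because each library came from a different mouse and the sources used here give no pairing between the diets.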
